A study of Bos taurus with 10 samples.

Results

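Histone chaperones and nucleosome-binding proteins are described here in bovine embryos in which the oocyte linker histone H1FOO was knocked down. The 39 members were taken from a list of gene symbols. It covers chaperones of H3-H4, acidic and nucleolar chaperones, chaperones that act during transcription together with remodellers, and the HMGN and HMGB proteins. A row was matched for 37 of them, out of 28700 genes in the table, and HIRA and SRCAP were not analysed here. All 37 had a mean of at least 1 FPKM (fragments scaled by transcript length and by the library's mapped fragments) over the libraries and were among the 11761 genes tested. NPM2 reached that mean only through its 8/16-cell values.

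Histones are highly charged, and chaperones hold them from synthesis until they are built into a nucleosome. Some escort H3-H4 dimers through the cytoplasm and nucleus and hand them to assembly factors behind the replication fork or at transcribed genes, whereas acidic chaperones bind H2A-H2B, linker histones or both. HMGN and HMGB proteins bind the finished nucleosome or its DNA, compete there with linker histones and loosen compact chromatin. In early embryos these proteins are partly supplied by the oocyte and partly made after the embryonic genome is switched on, while cleavage divisions follow each other without growth.

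Each library held poly(A) RNA of whole Bos taurus embryos. KD morulae had received siRNA against H1FOO as zygotes, and NC morulae had received negative control siRNA as zygotes, with 3 libraries each taken 5.5 days post insemination. KD 8/16-cell embryos and NC 8/16-cell embryos had received the same injections, with 2 libraries each taken 4 days post insemination. All embryos were thus injected, and an uninjected group was not analysed here. The knockdown acts on the whole embryo from the zygote on, and the number of embryos in a library is not given in the sources used here. In whole embryos, fewer cells of a type and less RNA per cell cannot be told apart.

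H1FOO stood at 0.0610, 0.191 and 0.251 FPKM in KD morulae, against 0.294, 1.05 and 2.17 FPKM in NC morulae. KD 8/16-cell embryos had 0.649 and 0.0736 FPKM, against 50.8 and 10.8 FPKM in NC 8/16-cell embryos, so the transcript was already low in both morula groups. The 18S ribosomal RNA RN18S1 reached 9053, 8553 and 11581 FPKM in KD morulae, against 2704, 2983 and 8611 FPKM in NC morulae, a difference of 1.23 on the log2 scale (SE 0.50, limma adjusted p = 0.194, 0.0386 in a fit blocked by replicate number). The 5 embryo identity genes POU5F1, SOX2, NANOG, TFAP2C and ARGFX were present in every library, with summed FPKM of 652 to 869 in KD morulae and 743 to 986 in NC morulae. NANOG had 25.4, 39.0 and 37.8 FPKM in KD morulae against 6.48, 14.4 and 18.8 FPKM in NC morulae, without overlap. ARGFX had 78.6, 125 and 162 FPKM in KD morulae against 61.9, 74.5 and 63.1 FPKM in NC morulae, also without overlap. POU5F1 went the other way, at 531, 324 and 277 FPKM in KD morulae against 673, 449 and 555 FPKM in NC morulae. SOX2 was likewise lower, at 146, 107 and 89.1 FPKM in KD morulae against 151, 123 and 102 FPKM in NC morulae. POU5F1 and SOX2 overlapped between groups. Of the 5 genes, 3 averaged higher and 2 lower in KD morulae. The part of these genes in the chaperone differences was not tested. Of 20 markers of cumulus and granulosa cells, 15 were tested, 12 of these averaged higher in KD than in NC morulae, and the summed FPKM of all 20 was 66.6 to 145 in KD morulae, 76.2 to 86.7 in NC morulae, 176 to 180.1 in KD 8/16-cell embryos and 101 to 105 in NC 8/16-cell embryos. SERPINE2, 1 of 3 tested markers that averaged lower, was the largest part of the sum in every NC morula library. It had 45.9, 23.4 and 35.0 FPKM in KD morulae, against 75.8, 50.1 and 45.0 FPKM in NC morulae. CYP19A1, too low to be tested, had 0.260, 0.143 and 0.0202 FPKM in KD morulae, against 1.41, 1.44 and 0.689 FPKM in NC morulae. It was the 1 marker lower without overlap, while 3 were higher without overlap. The defining marker FSHR was at 0 in all libraries, and LHCGR and PTX3 stayed under 1 FPKM. Of 5 sperm markers, PRM1, PRM2, ODF1 and AKAP4 stayed under 1 FPKM, while TNP1 brought the sum to 5.23 to 10.6 FPKM in KD morulae and 5.11 to 7.87 FPKM in NC morulae. Of 6 blood and immune markers, PTPRC and CD3E stayed under 1 FPKM, while the sum, nearly all from HBA, was 137 to 244 FPKM in KD morulae and 109 to 161 FPKM in NC morulae. CD68 ranged from 1.89 to 5.27 FPKM over all libraries.

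The chaperones ranged from some of the most abundant transcripts of the embryo to scarce ones. The highest mean FPKM over the 10 libraries was 696 for SET, a chaperone that binds linker and core histones and inhibits histone acetylation, which ranked 73 among the genes tested. It was followed by the nucleolar chaperone NPM1 at 662 FPKM, the acidic chaperone ANP32B at 517 FPKM, the DNA-bending protein HMGB1 at 398 FPKM and nucleolin, NCL, at 375 FPKM. These 5 genes held 56.9% to 62.3% of the summed FPKM of the 37 genes in each library. The lowest means were 2.26 FPKM for NPM2, the oocyte nucleoplasmin that unpacks sperm chromatin, and 4.37 FPKM for ANP32A. Replicates differed by a median SD of 0.231 on the log2 scale over the 37 genes, against 0.273 over all genes tested, with the lowest SD for SSRP1 at 0.107 and the highest for NPM2 at 0.508. HMGB1, HMGN1, HMGN2, NPM1, SET and the ANP32 genes have processed copies in mammalian genomes, so reads could be shared between copies and their values are uncertain to that extent.

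**Figure D1:**
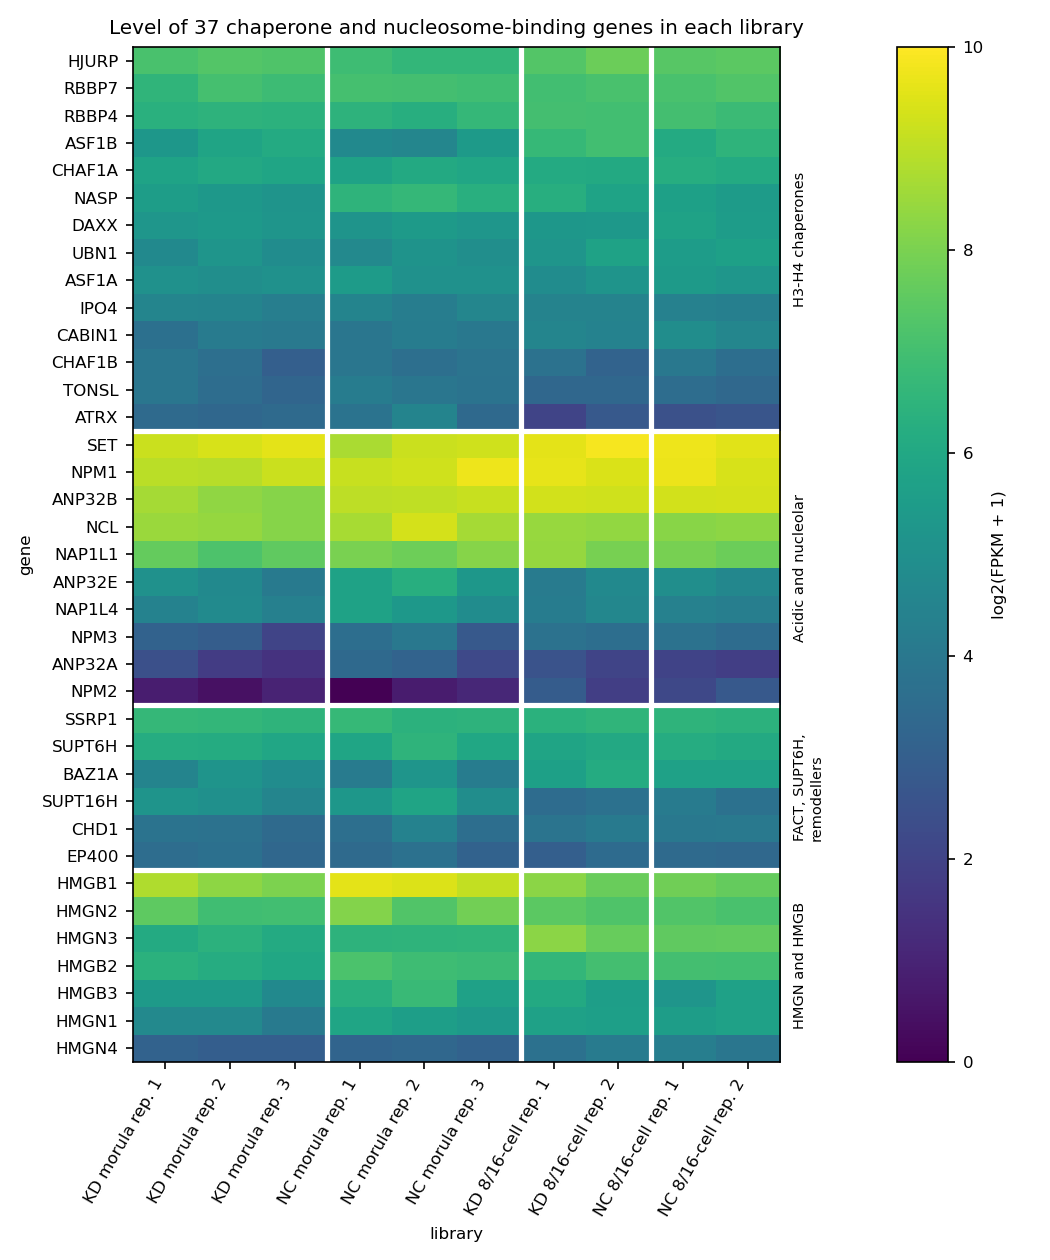
Level of each of the 37 genes, as log2(FPKM + 1) in colour, in the 10 libraries (columns, grouped as KD morula, NC morula, KD 8/16-cell and NC 8/16-cell) with the genes in rows by role. Yellow marks high and dark blue low values. SET, NPM1 and ANP32B are among the brightest rows in every group, and NPM2 is dark, near or under 1 FPKM, in all 6 morula libraries.

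The summed FPKM of the 37 genes was 3843, 3668 and 3615 in KD morulae, against 4668, 4950 and 4754 in NC morulae. At the 8/16-cell stage it was 5024 and 4873 in KD embryos, against 4871 and 4542 in NC embryos. The KD morulae were the lowest 3 of the 10 libraries, whereas at the 8/16-cell stage the lower KD library and the higher NC library were nearly equal. FPKM gives a share of a library, so levels and differences are measured against everything else in that library.

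The first comparison asked which of these genes differed between KD and NC morulae. NASP, which stores and escorts soluble H3-H4, and HMGN1, which binds nucleosomes and opens chromatin, fell in KD morulae. The other HMG proteins and most acidic chaperones were lower as well without passing the test, while HJURP and ASF1B were higher without passing it. In limma's test on log2(FPKM + 1) with Benjamini-Hochberg adjustment over all genes, 2 of 37 fell, against a background of 0.553% of all genes tested. None rose, against a background of 0.145%; at an unadjusted p under 0.05 there were 2 higher and 13 lower members, against 7.30% and 13.9% of all genes. With the replicate number as a block, which pairs the morula libraries, 12 members fell against a background of 8.00% and 2 rose against a background of 3.89%. The block fit leaves fewer residual degrees of freedom than the fit without it. Its spread also draws on the 8/16-cell pairs, which deviated together only weakly (r = 0.0558), so every p-value with the block carries both limits. The libraries of the treatments did not overlap for 12 lower members, against 15.3% of all genes, and for 1 higher member, against 8.44%. The median difference was -0.27 over the 37 genes and -0.08 over all genes tested, and 28 of 37 were lower, against 57.9% of all genes. With quantile normalization these medians were -0.14 and 0.00, and 23 of 37 were lower, against 5887 of 11761 genes. With an equal sum of FPKM 24 of 37 were lower, against 6273 of 11761 genes.

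The calls without the block depended on single libraries, of the other stage as well, since all 10 share an estimate of the spread. For all genes only the range over the left-out libraries is given, not the share for each. Over all genes tested, 82 were called, and 0 to 619 when 1 library was left out. No member fell without KD morula replicate 2 or 3, without NC morula replicate 1, or without any single 8/16-cell library; 1 fell without NC morula replicate 2 or 3, and 6 fell without KD morula replicate 1.

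NASP had 47.0, 38.9 and 34.9 FPKM in KD morulae, against 89.8, 98.8 and 77.5 FPKM in NC morulae. The groups did not overlap, and the lowest NC library lay well above the highest KD library. The difference was -1.12 on the log2 scale (SE 0.18, n = 3 per group), with limma's adjusted p = 0.0374, and 0.0038 with the block. NASP passed in 6 of 18 alternative analyses, over which its adjusted p ran from 0.0038 to 0.151, and it was lower in all of them.

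No other H3-H4 chaperone passed without the block. HJURP, which loads the centromeric histone CENP-A, had 138, 161 and 150 FPKM in KD morulae, against 118, 98.6 and 97.2 FPKM in NC morulae. Every KD library lay above every NC library, by 0.52 on the log2 scale (SE 0.17), with an adjusted p of 0.121 in limma and 0.0474 with the block. ASF1B, the H3-H4 chaperone tied to proliferation, had 38.1, 55.7 and 68.9 FPKM in KD morulae, against 26, 22.8 and 42.9 FPKM in NC morulae. The groups overlapped through NC replicate 3, and the difference was 0.82 (SE 0.27, limma adjusted p = 0.126, 0.0172 with the block). Its paralogue ASF1A had 32.4, 29.5 and 32.3 FPKM in KD morulae, against 43.6, 32.5 and 32.6 FPKM in NC morulae, a difference of -0.19 (SE 0.17, limma adjusted p = 0.545). CHAF1A, the large subunit of the replication-coupled assembly factor CAF-1, had 55.1, 63.8 and 58.4 FPKM in KD morulae, against 53.0, 65.6 and 59.2 FPKM in NC morulae, which overlapped throughout. Over the 14 H3-H4 chaperones the median difference was -0.06, 10 were lower (7 with an equal sum of FPKM, 6 with quantile normalization), and the summed FPKM overlapped, at 620, 715 and 669 in KD morulae against 689, 684 and 672 in NC morulae. Of all genes, 57.9% were lower. With the block, 1 of the 14 fell and 2 rose, against 8.00% and 3.89% of all genes.

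Acidic chaperones were mostly lower in KD morulae. ANP32B, one of a family of leucine-rich acidic proteins, had 399, 319 and 291 FPKM in KD morulae, against 512, 520 and 564 FPKM in NC morulae. The groups did not overlap, and the difference was -0.67 (SE 0.18, limma adjusted p = 0.0772, 0.0188 with the block). ANP32E, which removes the variant H2A.Z from nucleosomes, had 32.7, 25.9 and 16.1 FPKM in KD morulae, against 53.1, 76.3 and 38.0 FPKM in NC morulae. The groups were again separate, by -1.13 (SE 0.30, limma adjusted p = 0.0825, 0.0149 with the block). ANP32A was scarcer and overlapped between groups, at 4.39, 2.47 and 1.75 FPKM in KD morulae against 9.55, 8.20 and 3.56 FPKM in NC morulae. Its difference was -1.04 (SE 0.34, limma adjusted p = 0.128, 0.0156 with the block).

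The nucleosome assembly proteins NAP1L1 and NAP1L4, which carry H2A-H2B, were separated between treatments too. NAP1L4 had 20.8, 26.6 and 19.6 FPKM in KD morulae, against 53.5, 38.8 and 27.8 FPKM in NC morulae. The highest KD library lay just under the lowest NC library, and the difference was -0.78 (SE 0.23, limma adjusted p = 0.106, 0.0389 with the block). NAP1L1 had 199, 148 and 190 FPKM in KD morulae, against 250.1, 222 and 293 FPKM in NC morulae, a difference of -0.51 (SE 0.20, limma adjusted p = 0.174, 0.0344 with the block).

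The nucleolar chaperones did not pass without the block. NCL had 364, 338 and 292 FPKM in KD morulae, against 415, 647 and 399.8 FPKM in NC morulae, without overlap, a difference of -0.53 that did not pass in limma with or without the block (adjusted p = 0.0573 and 0.189). NPM1 overlapped, at 504, 481 and 583 FPKM in KD morulae against 576, 622 and 849 FPKM in NC morulae (limma adjusted p = 0.338). NPM3, a small relative of NPM1, had 7.75, 6.77 and 3.09 FPKM in KD morulae, against 11.1, 15.2 and 5.87 FPKM in NC morulae, a difference of -0.76 (limma adjusted p = 0.232, 0.0239 with the block). SET went the other way, at 586, 675 and 770.0 FPKM in KD morulae against 426, 580.2 and 615 FPKM in NC morulae, with overlap and a limma adjusted p of 0.386. Of the 10 acidic and nucleolar chaperones 8 were lower, against 57.9% of all genes, with a median of -0.60. With the block 6 fell, against 8.00% of all genes.

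**Figure D2:**
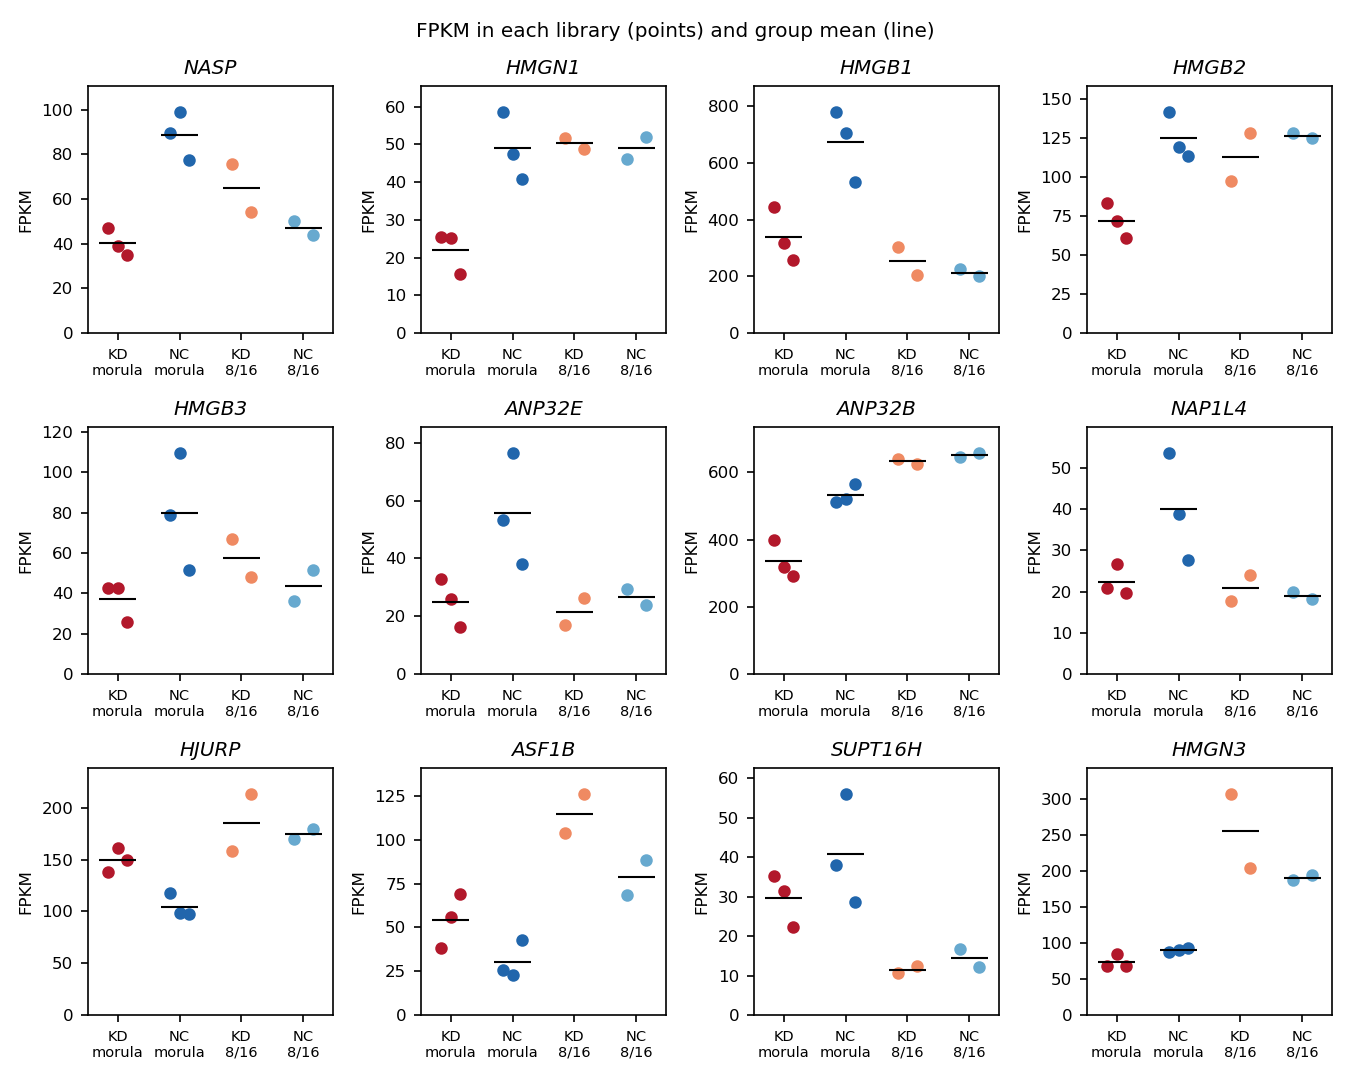
FPKM of 12 genes in each library (points) by group, with the group mean as a line; each panel has its own axis, starting at 0. NASP, HMGN1, HMGB1, HMGB2, HMGB3, ANP32E, ANP32B, NAP1L4 and HMGN3 lie lower in all 3 KD morula libraries than in any NC morula library, HJURP lies higher, and ASF1B and SUPT16H overlap.

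All 7 HMGN and HMGB genes were lower in KD morulae, against 57.9% of all genes, with a median difference of -0.79. With the block 5 of them fell, against 8.00% of all genes. HMGN1 had 25.4, 25.2 and 15.8 FPKM in KD morulae, against 58.5, 47.6 and 40.9 FPKM in NC morulae. The groups did not overlap, and the difference was -1.13 (SE 0.21, n = 3 per group), with limma's adjusted p = 0.0427, and 0.00423 with the block. It passed in 4 of 18 alternatives, over which the adjusted p ran from 0.00423 to 0.184, and was lower in all of them. HMGN2, the more abundant relative of HMGN1, had 180.1, 122 and 124 FPKM in KD morulae, against 283, 154 and 230.4 FPKM in NC morulae, overlapping through KD replicate 1 (limma adjusted p = 0.176, 0.0239 with the block). HMGN3 had 67.5, 85.2 and 67.6 FPKM in KD morulae, against 87.7, 90.4 and 92.8 FPKM in NC morulae; the groups were separate, with a limma adjusted p of 0.36. HMGN4 had 7.84, 6.92 and 6.84 FPKM in KD morulae, against 8.28, 9.03 and 7.74 FPKM in NC morulae (limma adjusted p = 0.565).

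The HMGB proteins bend DNA and were each separated between treatments. HMGB1 had 444, 317 and 257 FPKM in KD morulae, against 779, 707 and 534 FPKM in NC morulae, a difference of -1.0 (SE 0.25, limma adjusted p = 0.0724, 0.00452 with the block). HMGB2 had 83.4, 71.4 and 60.9 FPKM in KD morulae, against 141, 119 and 113 FPKM in NC morulae, a difference of -0.79 (SE 0.18, limma adjusted p = 0.0624, 0.00922 with the block). HMGB3 had 42.8, 42.5 and 25.9 FPKM in KD morulae, against 79.0, 109 and 51.9 FPKM in NC morulae, a difference of -1.06 (SE 0.29, limma adjusted p = 0.089, 0.0129 with the block). None of the 3 had a KD library as high as its lowest NC library. The summed FPKM of HMGB1 to HMGB3 was 570.1, 431 and 344 in KD morulae, against 999, 936 and 699 in NC morulae. HMGB1 over HMGB2, a ratio of levels, was 4.23 to 5.33 in KD morulae and 4.72 to 5.94 in NC morulae, so the paralogues were lower together.

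Replicate 3 was the lowest KD morula library for NASP, HMGN1, HMGN4, ANP32A, ANP32B, ANP32E, NAP1L4, NPM3, NCL and the 3 HMGB genes. It was also the lowest for CHAF1B, DAXX, TONSL, IPO4, SUPT16H, SSRP1, SUPT6H, EP400 and CHD1. None of these further genes passed between KD and NC morulae in either fit. The share of all genes that were lowest in this library was not counted. The same library had the highest RN18S1 value and the highest summed cumulus and granulosa markers of the KD morulae, with VIM at 43.3 FPKM against 3.44 and 11 FPKM in KD replicates 1 and 2 and 0.346, 5.40 and 5.42 FPKM in NC morulae. KD replicate 3 also had the lowest relative depth of all libraries, 0.712, against 1.44 and 0.908 in KD replicates 1 and 2. NC replicate 3 had the highest RN18S1 value of the NC morulae, the only one near the KD values. It was the lowest NC library for NASP, HMGN1, HMGN4, ANP32A, ANP32E, NAP1L4, NPM3, NCL and the 3 HMGB genes, but not for ANP32B. The part of RN18S1, of relative depth and of the markers in these differences was not tested.

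The group of transcription-coupled chaperones and of remodellers held 6 genes, among them the ISWI subunit BAZ1A. Of these, 3 were lower and 3 higher in KD morulae, with a median of 0.03, and none passed in either fit. SSRP1, a subunit of the H2A-H2B chaperone FACT, had 101, 97.7 and 90.7 FPKM in KD morulae, against 102, 84.0 and 86.8 FPKM in NC morulae. SUPT16H, its partner in FACT, had 35.2, 31.4 and 22.3 FPKM in KD morulae, against 37.9, 55.9 and 28.6 FPKM in NC morulae.

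**Figure D3:**
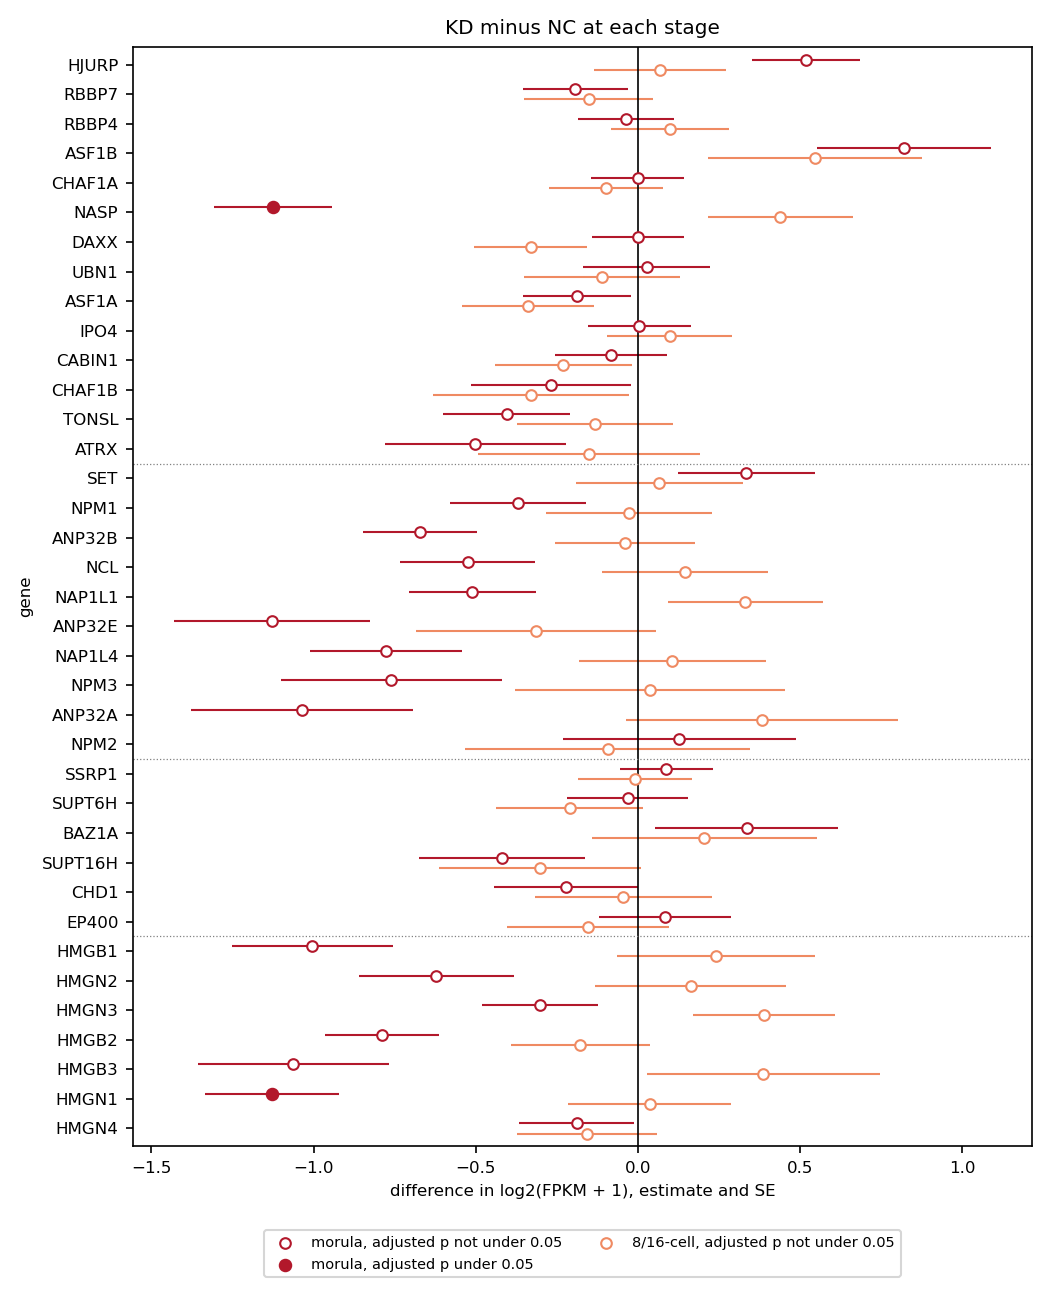
Difference between KD and NC embryos in log2(FPKM + 1) for each gene, with bars of 1 SE, at the morula stage and at the 8/16-cell stage; filled points have a limma adjusted p under 0.05. Only NASP and HMGN1 at the morula stage are filled, and the HMG genes and most acidic chaperones lie left of 0 at the morula stage.

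At the 8/16-cell stage no chaperone passed the test between KD and NC embryos. With limma, 0 of 37 rose and 0 fell, against backgrounds of 0.0170% and 0, and 0 of 37 had an unadjusted p under 0.05, against 4.37% of all genes. The libraries did not overlap for 7 higher and 8 lower members, against 19.3% and 13.9% of all genes, and the median difference was -0.03, against 0.01 over all genes. The smallest unadjusted p, 0.076, was that of NASP, which had 75.7 and 54.2 FPKM in KD embryos, against 50.3 and 44.0 FPKM in NC embryos. Both KD libraries lay above both NC libraries, by 0.44 on the log2 scale (SE 0.22, limma adjusted p = 1). HMGN1 overlapped, at 51.8 and 48.7 FPKM in KD embryos against 46.3 and 51.9 FPKM in NC embryos. The other genes with the smallest p were DAXX, which deposits H3.3 (-0.33), HMGN3 (0.39), ASF1A (-0.34), ASF1B (0.55), NAP1L1 (0.33), CABIN1 of the H3.3-depositing HIRA complex (-0.23) and CHAF1B of CAF-1 (-0.33). The pair of MIR2887 microRNA genes took 27.1% and 8.06% of the summed FPKM in KD replicates 1 and 2. Rescaling to an equal sum shifted the median of all genes to -0.32 from 0.01, and HMGN3 and NAP1L1 then lay at -0.01 and -0.07. With MIR2887 left out of the sum, the median of all genes was -0.08.

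Whether the KD effect differed between the stages was tested as an interaction, the morula difference minus the 8/16-cell difference. No member passed with limma in either direction, against backgrounds of 0 for higher and 0.0170% for lower, while 9 members were lower at an unadjusted p under 0.05, against 6.64% of all genes. The difference of differences was -1.56 for NASP (SE 0.29, limma adjusted p = 0.253), and NASP alone passed with the block (adjusted p = 0.0499, background 0.196%). That fit also pairs the 8/16-cell libraries, whose same-numbered members deviated together only weakly (r = 0.0558), so the pairing behind this call is not supported at that stage. HMGN1 gave -1.16 (limma adjusted p = 0.446, 0.0883 with the block) and HMGB1 gave -1.24 (limma adjusted p = 0.479, 0.0628 with the block). The median over all genes was -0.10, and 0.29 with an equal sum of FPKM. Without MIR2887 in the sum it was 0.05, and with quantile normalization 0.01. Over the 37 genes the median was -0.14, and 0.03 without MIR2887 in the sum. Of the 37, 23 were lower, against 58.5% of all genes. Without MIR2887 in the sum 18 were lower, against 5425 of 11761 genes. The value for NASP combines its -1.12 in morulae with its 0.44 at the 8/16-cell stage, and a change limited to morulae was not shown for any of these genes.

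Morulae were then set against 8/16-cell embryos within each treatment, which shows how the transcript levels of the chaperones differed across the 2 stages. Both comparisons carry any difference in how the columns of the stages were made. In KD embryos 2 members rose, against a background of 5.22%, and 11 fell, against 14.8%. In NC embryos 6 members rose, against a background of 12.6%, and 8 fell, against 18.2%. As shares of the 37, the rises were 5.41% in KD and 16.2% in NC embryos and the falls 29.7% in KD and 21.6% in NC embryos, with the falls in KD embryos furthest from their background. In both treatments 8 genes passed, of 13 in KD and 14 in NC embryos, 7 of them with the same sign. Of all genes, 20.0% passed in KD and 30.8% in NC embryos. The share of all genes that passed in both, or kept their sign, was not counted, so this overlap has no background. Without NPM2, whose fall the filter on low values fixed, 10 fell in KD and 7 in NC embryos, of 36, and 7 passed in both, 6 of them with the same sign.

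SUPT16H and ATRX rose in both treatments. SUPT16H averaged 29.6 ± 6.62 FPKM in KD morulae and 11.5 ± 1.28 FPKM in KD 8/16-cell embryos (SD, n = 3 and 2), a difference of 1.27 (limma adjusted p = 0.0141). In NC embryos it averaged 40.8 ± 13.9 FPKM in morulae and 14.5 ± 3.24 FPKM at the 8/16-cell stage, a difference of 1.39 (limma adjusted p = 0.00544). SSRP1 did not pass in either treatment (0.14 in KD and 0.04 in NC embryos), and the ratio of SUPT16H to SSRP1 levels was 0.246 to 0.349 in KD morulae against 0.127 to 0.135 in KD 8/16-cell embryos, and 0.330 to 0.665 in NC morulae against 0.143 to 0.186 in NC 8/16-cell embryos. ATRX, the remodeller that works with DAXX to deposit H3.3, had 9.93, 9.17 and 9.87 FPKM in KD morulae against 3.14 and 5.86 FPKM in KD 8/16-cell embryos, and 13, 22.0 and 9.63 FPKM in NC morulae against 4.59 and 5.26 FPKM in NC 8/16-cell embryos. It rose by 1.0 in KD embryos (limma adjusted p = 0.0458, passing in 6 of 18 alternatives) and by 1.35 in NC embryos (limma adjusted p = 0.00954, passing in 16).

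The genes that fell in both treatments were HMGN3, HMGN4, ASF1B, BAZ1A and NPM2. HMGN3 had 67.5, 85.2 and 67.6 FPKM in KD morulae, against 306 and 204 FPKM in KD 8/16-cell embryos, a difference of -1.76 (SE 0.20, limma adjusted p = 0.000935). In NC embryos it had 87.7, 90.4 and 92.8 FPKM in morulae, against 187 and 194 FPKM at the 8/16-cell stage, a difference of -1.07 (SE 0.20, limma adjusted p = 0.00362). HMGN3 passed in all 18 alternatives of both comparisons. Its level over that of HMGN2 was 0.375 to 0.697 in KD morulae against 1.34 to 1.71 in KD 8/16-cell embryos, and 0.310 to 0.587 in NC morulae against 1.19 to 1.40 in NC 8/16-cell embryos, so HMGN3 was the higher of the pair at the 8/16-cell stage and the lower in morulae.

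HMGN4 differed by -0.90 in KD embryos (limma adjusted p = 0.0127) and by -0.87 in NC embryos (limma adjusted p = 0.00873). ASF1B had 38.1, 55.7 and 68.9 FPKM in KD morulae against 104 and 126 FPKM in KD 8/16-cell embryos, and 26, 22.8 and 42.9 FPKM in NC morulae against 68.8 and 88.6 FPKM in NC 8/16-cell embryos; it fell by 1.10 (limma adjusted p = 0.0285) and by 1.38 (limma adjusted p = 0.00729). BAZ1A, a subunit of ISWI remodellers that space nucleosomes, differed by -1.07 in KD embryos (limma adjusted p = 0.039) and by -1.20 in NC embryos (limma adjusted p = 0.0171). The oocyte chaperone NPM2 had 0.725, 0.376 and 1.0 FPKM in KD morulae against 6.51 and 2.65 FPKM in KD 8/16-cell embryos, and 0, 0.689 and 1.16 FPKM in NC morulae against 3.46 and 6.0 FPKM in NC 8/16-cell embryos. It passed the filter on low values through the earlier stage, so its fall is given as a description only.

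NASP passed in both treatments with opposite signs. In KD embryos it fell to 47.0, 38.9 and 34.9 FPKM in morulae, against 75.7 and 54.2 FPKM at the 8/16-cell stage, by 0.67 on the log2 scale (limma adjusted p = 0.0426), a call that held in 5 of 18 alternatives. In NC embryos it rose to 89.8, 98.8 and 77.5 FPKM in morulae, against 50.3 and 44.0 FPKM at the 8/16-cell stage, by 0.90 (limma adjusted p = 0.00898), a call that held in 17 of 18. The contrast between these 2 changes is the interaction given above.

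Passing in KD embryos only were HMGN1 (-1.18, limma adjusted p = 0.0079), ANP32B (-0.92, 0.0114), NAP1L1 (-0.71, 0.0437), HMGB2 (-0.64, 0.044) and the H4-binding WD-repeat protein RBBP4 (-0.59, 0.0334). Their differences in NC embryos were -0.01, -0.29, 0.13, -0.03 and -0.45. In KD embryos HMGN1 passed in 16 of 18 alternatives, ANP32B in 15, RBBP4 in 10, and NAP1L1 and HMGB2 in 6 each.

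Passing in NC embryos only were HMGB1, NAP1L4, ANP32E, HJURP, CABIN1 and UBN1. HMGB1 had 444, 317 and 257 FPKM in KD morulae against 305 and 207 FPKM in KD 8/16-cell embryos, and 779, 707 and 534 FPKM in NC morulae against 226 and 199.9 FPKM in NC 8/16-cell embryos. It rose in NC embryos by 1.64 (SE 0.28, limma adjusted p = 0.00235, and in all 18 alternatives), while in KD embryos, where the groups overlapped, the difference was 0.40 (limma adjusted p = 0.33). NAP1L4 rose in NC embryos by 0.99 (limma adjusted p = 0.0176), against 0.10 in KD embryos. ANP32E rose in NC embryos by 0.99 (limma adjusted p = 0.0468), against 0.18 in KD embryos. HJURP fell in NC embryos by 0.74 (limma adjusted p = 0.0134), against -0.29 in KD embryos. CABIN1 and UBN1, partners of HIRA, fell in NC embryos by 0.68 and 0.67 (limma adjusted p = 0.022 and 0.0398), against -0.54 for each in KD embryos. Of these calls, those of NAP1L4 and HJURP held in 15 of 18 alternatives, that of CABIN1 in 13, of UBN1 in 10 and of ANP32E in 7. Passing in 1 treatment does not show a difference between treatments, and the interaction did not pass for any of these 11 genes in either fit.

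**Figure D4:**
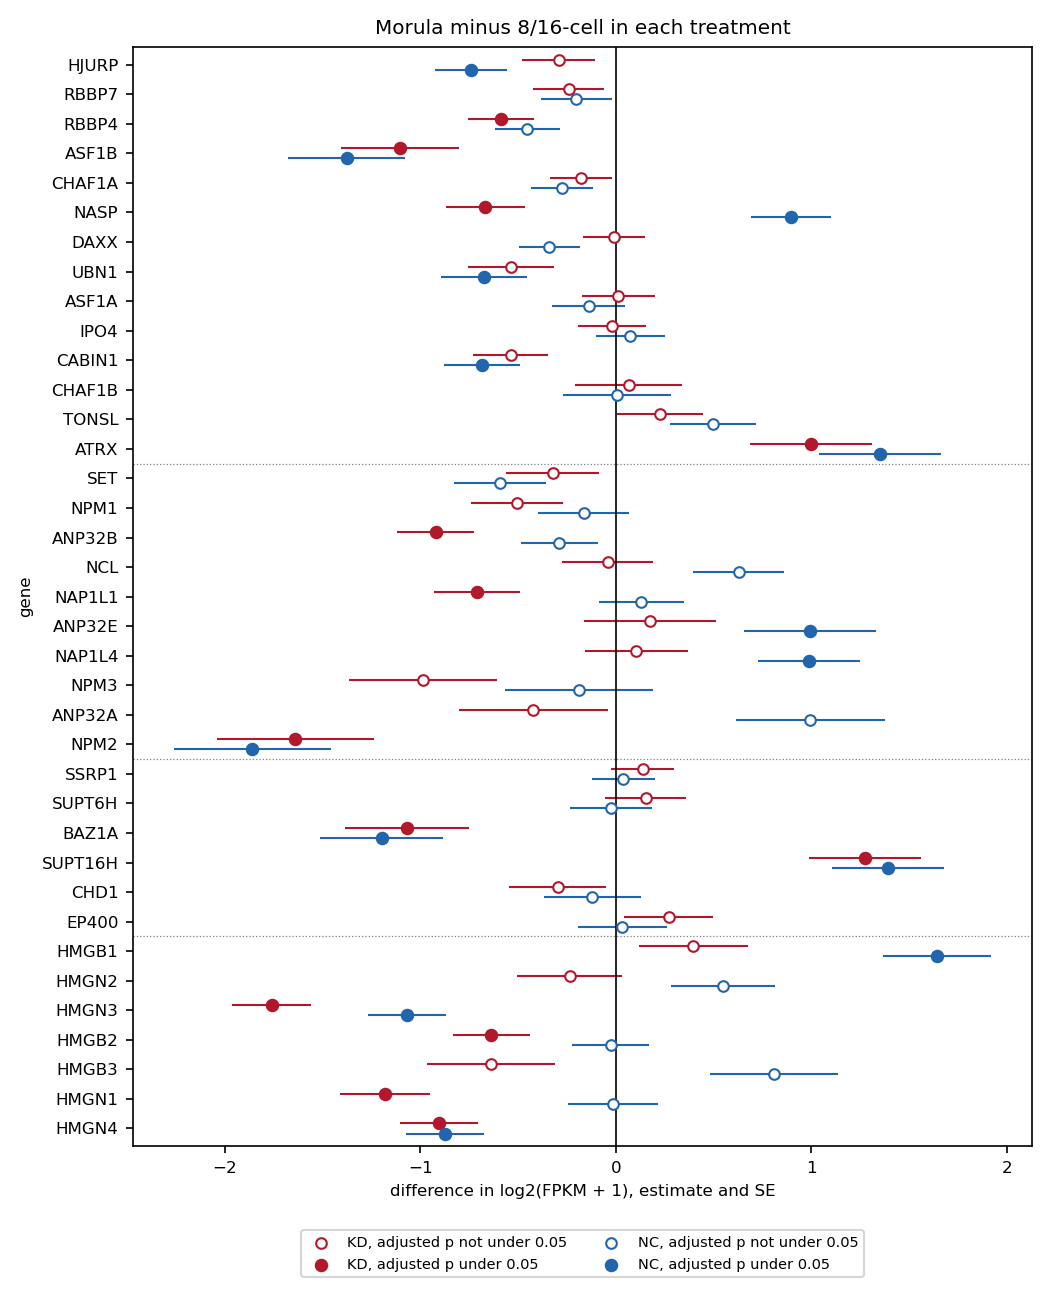
Difference between morulae and 8/16-cell embryos in log2(FPKM + 1) for each gene, with bars of 1 SE, in KD and NC embryos; filled points have a limma adjusted p under 0.05. NASP is the only gene with filled points on opposite sides of 0, and HMGB1 is filled on the right in NC embryos alone.

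These counts rested on few libraries. In KD embryos, 0 rose and 2 fell without KD 8/16-cell replicate 1, 0 and 3 without KD 8/16-cell replicate 2, 1 and 5 without KD morula replicate 1 or 2, 1 and 6 without KD morula replicate 3, and 1 and 7 without either NC 8/16-cell library; 1 rose without NC morula replicate 1. In NC embryos, 3 rose and 3 fell without NC 8/16-cell replicate 1, 1 and 2 without NC 8/16-cell replicate 2, 5 and 5 without NC morula replicate 1, and 9 and 8 without NC morula replicate 3. The share of all genes for each left-out library and direction is not given here, so these counts describe no trait of the members. The calls over all genes moved as well. In KD embryos 2355 of all genes passed, and 705 to 2755 when 1 library was left out. In NC embryos 3626 of all genes passed, and 1416 to 3693 when 1 library was left out. The split of the members also moved with scaling: with an equal sum of FPKM, 1 rose and 2 fell in KD embryos and 4 rose and 3 fell in NC embryos. The shares of all genes that rose and fell under this scaling are not given here. Over the alternatives that kept every library, 1329 to 3529 of all genes passed in KD and 2572 to 4592 in NC embryos. With an equal sum of FPKM the median of all genes in KD embryos lay at 0.21 in place of -0.18. It lay at -0.03 with MIR2887 left out of the sum.

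A further list of chaperone and nucleosome assembly genes outside the 39, of which 46 were tested, was set beside them. None passed between KD and NC morulae in limma, against the backgrounds of 0.145% and 0.553% given above; with the block 2 rose and 5 fell, against 3.89% and 8.00% of all genes. Their median difference was -0.17, and 32 of 46 were lower, against 57.9% of all genes. With quantile normalization the median was -0.03 and 25 were lower, against 5887 of 11761 genes. The smallest p belonged to PARP1, which binds nucleosomes and damaged DNA, at -0.91 (limma adjusted p = 0.0562, 0.00802 with the block), NUCKS1, a DNA-binding nuclear protein, at -0.72 (limma adjusted p = 0.0648), the H3.3 chaperone DEK at -0.68 (limma adjusted p = 0.0724) and the centromeric histone CENPA, the cargo of HJURP, at -0.62 (limma adjusted p = 0.0724). CENPA was lower in KD morulae while HJURP was higher, neither passing without the block. At the 8/16-cell stage none passed, with PARP1 at -0.39, CENPA at 0.32, the importin KPNA2 at 0.40 and HMGN5 at 0.40. Between stages, 1 rose and 6 fell in KD embryos, against 5.22% and 14.8% of all genes, and 3 rose and 8 fell in NC embryos, against 12.6% and 18.2%, so no count stood above its background.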

How the data were processed

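Poly(A) RNA of bovine embryos was sequenced in 10 libraries, and every data column was matched to a sample by its label (0 columns unmatched). The deposited values are FPKM made by the authors with Trimmomatic, HISAT2, featureCounts and Cufflinks and the builds ARS-UCD1.2 and bosTau9, per the submitters' processing notes; versions and the step of each tool are not given in the sources used here. Read depth and counting error are unknown. The lowest values put relative depths between 0.712 (KD morula replicate 3) and 1.44 (KD morula replicate 1). Each was read against NC 8/16-cell replicate 1 from the most common ratio, held by 23 to 94 genes. Of 39911 lines, 11211 belong to 81 symbols listed on several lines and were left out. All 81 hold 1 combination of values in the 8/16-cell columns and 75 hold several in the morula columns, so the stages may have been tabulated apart and merged.

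Values were transformed to log2(FPKM + 1), and genes whose mean reached 1 FPKM were tested with limma 3.58.1 in R 4.3.3 (limma-trend, 4 group means, all 10 libraries, 6 residual degrees of freedom). Fold changes are on that scale, which understates the change of low genes. Two-sided p-values were adjusted by Benjamini-Hochberg over all 11761 genes, and a gene passed under 0.05. The labels do not say whether libraries came from separate collections, so p-values reflect the spread among these libraries alone, which may be technical. The fit was tested on simulated data. Tables and figures were made with pandas 2.3.3 and matplotlib 3.10.9.

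Same-numbered KD and NC morula libraries deviated together from their group means (r = 0.370, 0.325 and 0.312 across genes), so the replicate number was taken to pair them, from the data and not the labels. The members and lists were chosen with earlier results of these data known. Genes were named by rule: in each KD comparison those that passed, then the smallest p up to 8; the 3 smallest p of the interaction; the 6 largest rises and falls that passed in NC embryos; the 5 highest levels; and up to 4 other chaperone genes. ANP32A, ASF1A, ASF1B, CHAF1A, HJURP, HMGN2, HMGN3, HMGN4, NAP1L1, NCL, NPM1, NPM3, SET, SSRP1 and SUPT16H in morulae, HMGN1 at the 8/16-cell stage and ANP32B, CABIN1, HMGB2, HMGN1, NAP1L1, RBBP4, SSRP1 and UBN1 between stages were described after their values were seen. Alternatives were another pseudocount (0.1), no filter or a minimum of 5 FPKM, other scalings, only the groups compared, leaving out each library and the replicate block.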

Additional observations from a re-analysis of the deposited data

How the results depend on the processing

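Depth is unknown, and groups of 2 or 3 libraries limit every call. Except where printed, the share of all genes in each direction is not given for the alternative settings below. Between KD and NC morulae, 0 members fell with an equal sum of FPKM, with an equal sum without MIR2887 (chosen after seeing the data), with no filter, with only the groups compared and with quantile normalization, while 12 fell and 2 rose with the replicate block; leaving out 1 library gave 0 to 6. The cause was not tested. The block gave 1 lower member in the interaction, NASP. The 8/16-cell counts stayed at 0 in all 18 alternatives. In KD embryos, morula against 8/16-cell, 1 member rose with an equal sum, an equal sum without MIR2887, no filter or only the groups compared; 2 fell with an equal sum, 4 with an equal sum without MIR2887, 6 with no filter and 6 with quantile normalization; leaving out 1 library gave 0 to 2 rises and 2 to 11 falls. In NC embryos 11 members rose with the block, against 17.2% of all genes, and 3 fell with an equal sum. Leaving out 1 library gave 1 to 9 rises and 2 to 8 falls. Across stages (KD r = 0.104 and 0.15, NC r = 0.0983 and 0.0361) and at the 8/16-cell stage (r = 0.0558), samples share only a number. Most of the 72 named results did not pass in the fit without the block, and staying uncalled counts as keeping the status. The total is therefore no measure of how stable the calls were. Between KD and NC morulae, NASP passed in 6 of 18 alternatives and HMGN1 in 4. Over the 72 named results and 1289 alternatives, 1100 kept their status, 156 lost a call, 25 gained one and 8, none of them called, reversed in sign. These were HMGN3, NAP1L1 and CENPA at the 8/16-cell stage with an equal sum (-0.012, -0.0699 and -0.0714), HJURP in KD embryos between stages with an equal sum (0.18), and, in KD embryos between stages with 1 library left out, ANP32E (-0.12 to 0.47; below 0 without KD 8/16-cell replicate 1 or KD morula replicate 1) and NAP1L4 (-0.11 to 0.32; below 0 without KD 8/16-cell replicate 1 or KD morula replicate 2). All genes called between KD and NC morulae numbered 82, with 0 to 619 when 1 library was left out and 0 to 1398 otherwise.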
